A study of Homo sapiens with 4 samples.

Results

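Cells that express MMP1, the interstitial collagenase, were examined within 1 library of human melanoma cells. The study profiled WM239A, a melanoma line that its labels call poorly metastatic, and 3 metastatic subclones of it, 113/6-4L (lung), 131/4-5B1 (brain) and 131/4-5B2 (brain), with 1 droplet-based 3' RNA library per line and no treatment. The count table held 8173 cells in 4 barcode sets that are told apart by the ending of the cell name. Neither the names nor the labels tie a set to a line, so barcode set 1 is given no line's name here. Members were chosen by their MMP1 count. Among the 2121 cells of barcode set 1, 1753 had at least 20000 unique molecular identifiers (UMIs, each standing for 1 captured RNA molecule), and 624 of these held 3 or more MMP1 UMIs. They were compared with the 572 cells that held 0. The remaining 557 cells, with 1 or 2 MMP1 UMIs, belonged to neither group. Both groups come from 1 library of an established line, so they share culture and preparation, and the cells are not replicates. Whether subclones exist within the set was not tested. No test was run and no p-value is given. Every interval covers counting error at 95% only, and since MMP1 counts set the groups, all differences between them are descriptions.

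MMP1 is a secreted zinc protease that cuts native fibrillar collagen. It is made as an inactive precursor, which plasmin and other proteases can activate, and it is held in check by the TIMP inhibitors. Its gene lies in a cluster of matrix metalloproteinase genes on the long arm of chromosome 11 (chr11:102789920-102798160 in GRCh38, minus strand, by the GENCODE annotation), and its transcription in many cell types depends on AP-1 and ETS factors acting downstream of MAPK signalling. Melanoma cells are known to move between a pigmented, differentiated state and less differentiated states, of which the nerve growth factor receptor NGFR is a marker.

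MMP1 was spread very unevenly over the cells of barcode set 1. The cells held 9062 MMP1 UMIs, with a lowest count of 0, a median of 1 and a highest of 128 per cell. The 624 cells with 3 or more, 35.6% of the cells (33.4% to 37.9%, Clopper-Pearson), carried 91.9% of all MMP1 UMIs. A smaller class of 257 cells with 10 or more UMIs carried 71.4% by itself, and the 175 cells with the highest counts carried 60.6%. Summed over the group and divided by its total UMIs (CPM, UMIs per 1000000 UMIs), MMP1 stood at 336 CPM in the cells with 3 or more (329 to 344) and at 610 CPM in those with 10 or more (595 to 625). Just outside the threshold, the 180 cells with 2 UMIs had 52.0 CPM, and just inside it the 172 cells with 3 to 4 UMIs had 88.7 CPM. The variance of MMP1 counts over cells was 23.6 times their mean, and 28 of 6919 genes compared had a higher ratio. After every cell had been thinned at random to 20000 UMIs, the ratio was 11.3 and 14 genes stood above MMP1. By then 456 cells held 3 or more MMP1 UMIs and 776 held 0. A count of 0 is therefore partly a matter of depth, and a cell with 0 UMIs is not shown to lack MMP1 RNA.

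**Figure D1:**
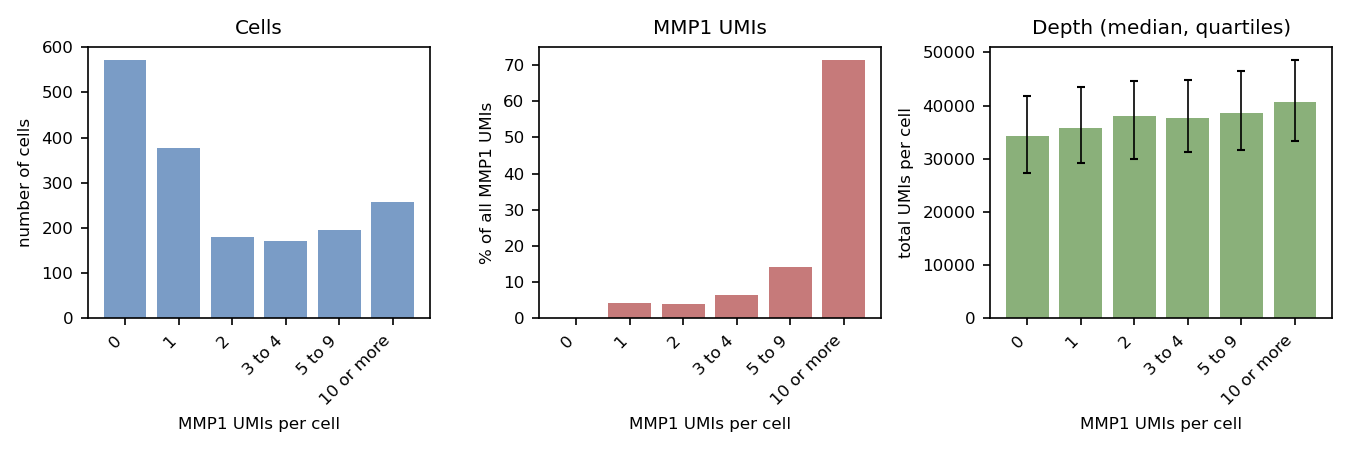
Number of cells (left), share of all MMP1 UMIs in percent (middle) and total UMIs per cell (right; bars are medians, lines the quartiles) in 6 classes of cells by MMP1 UMIs per cell, barcode set 1. The class with 10 or more MMP1 UMIs held 257 cells and 71.4% of the MMP1 UMIs, and the median depth was lowest, 34322.5 UMIs, in the class with 0.

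Depth differed between the groups. The cells with 3 or more MMP1 UMIs had a median of 38778.5 total UMIs and 5631 detected genes, against 34322.5 UMIs and 5344 genes in the cells with 0. Of cells between 20000 and 30000 UMIs 25.3% (21.4% to 29.5%) had 3 or more MMP1 UMIs, and of cells with 50000 or more 45.7% (39.1% to 52.5%). At an equal depth of 20000 UMIs per cell the same bins gave 23.2% and 30.5%, and the MMP1 level was 131 CPM in the lowest and 158 CPM in the highest bin. Depth-matched values, for which the cells with 0 were weighted to the depth profile of the high cells in bins of 5000 UMIs, are therefore given beside the ratios that they take across 1.5-fold and the list medians whose sign they turn. The 5 high cells whose bin held no cell with 0 dropped out of it. Cells over 60000 UMIs, where droplets with 2 cells would be found most often, made up 3.53% of the high group and 1.92% of the group with 0. Mitochondrial genes gave a median of 4.73% of a cell's UMIs in the high group and 5.66% in the other. The part of mitochondrial share and of doublets in the differences was not tested beyond the values given below. Of the barcodes, 39 occurred in more than 1 set, and 4 high cells and 8 cells with 0 carried such a barcode.

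The share of cycling cells was nearly the same in both groups without depth matching. With matching it was lower in the high group, but no interval was computed for the weighted shares. With cells thinned to 10000 UMIs and phases assigned from S and G2/M gene scores, 65.4% (61.5% to 69.1%) of the cells with 3 or more MMP1 UMIs were in S or G2/M, and 65.035% (60.97% to 68.9%) of the cells with 0. At deposited depth the shares were 63.3% and 64.3%. With the cells with 0 weighted to equal depth the shares were 65.3% in the high group and 68.8% in the other with thinned cells, and 63.0% and 68.7% at deposited depth. Read the other way, 35.2% of G1 cells, 35.3% of S cells and 36.9% of G2/M cells were in the high group, although S and G2/M cells were deeper (medians of 39549 and 39651 UMIs) than G1 cells (32701). Of the S phase genes, 31 of 43 listed were measured (at least 10 CPM in 1 or both groups) and 0 were 1.5-fold apart, and of the G2 and M phase genes 46 of 54 were measured and again 0 were 1.5-fold apart. For comparison, 0.395% of all measured genes were 1.5-fold higher in the high group and 0.24% lower. The median log2 ratio of the S list was 0.04 and that of the G2 and M list 0.09, and at matched depth they were -0.04 and 0.00. MKI67, a proliferation antigen, stood at 38.8 CPM in the high cells and 42.0 CPM in the others, TOP2A, the topoisomerase of dividing cells, at 93.2 and 88.2 CPM, and the replication clamp PCNA at 107 and 100.8 CPM.

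**Figure D2:**
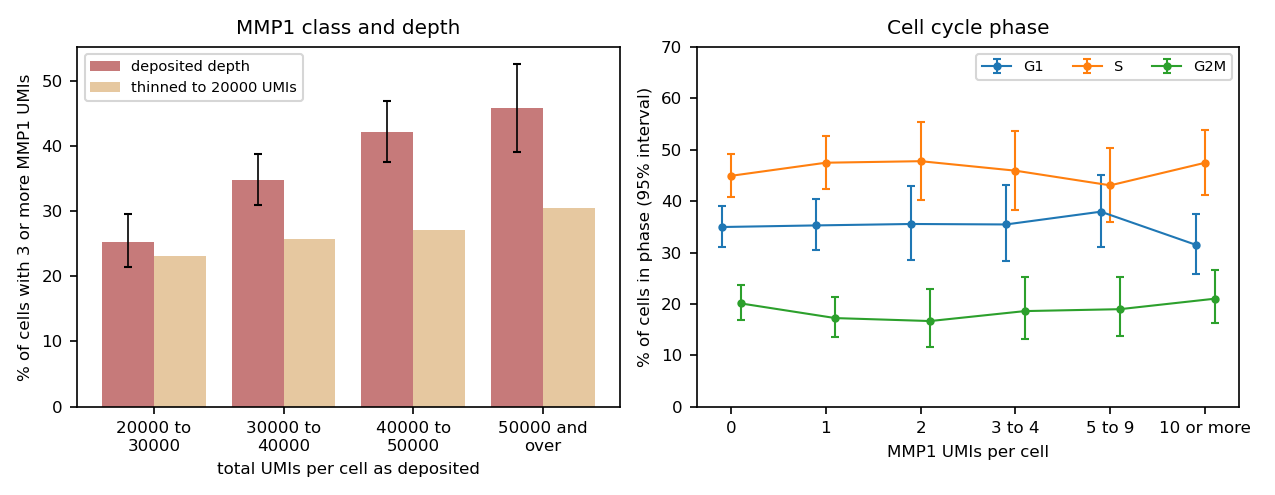
Left, percent of cells with 3 or more MMP1 UMIs in 4 bins of total UMIs per cell, at deposited depth (lines are 95% Clopper-Pearson intervals) and after thinning to 20000 UMIs. Right, percent of cells in G1, S and G2/M by MMP1 class after thinning to 10000 UMIs, with 95% intervals. From the shallowest to the deepest bin the share went from 25.3% to 45.7%, and from 23.2% to 30.5% after thinning, and the intervals of each phase overlapped between all classes.

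Few genes differed between cells with and without MMP1. Of 7093 measured genes other than MMP1, 28 were at least 1.5-fold higher in the MMP1 cells (0.395%) and 17 at least 1.5-fold lower (0.24%), on the log2(CPM + 1) scale, which understates ratios of weakly expressed genes. At 2-fold the counts were 8 (0.113%) and 3 (0.0423%). With matched depth 29 were higher (0.409%) and 20 lower (0.282%), and 25 and 15 genes were past 1.5-fold both ways. The median log2 ratio of all measured genes was 0.01. The split of higher and lower counts moved to 34 and 33 when the totals left out mitochondrial and ribosomal protein genes. By the naming rule the 12 highest were NGFR, PTPRN2, HLA-DRA, LYPD1, HLA-DPA1, XAGE3, IL8, HLA-DMA, ITGA3, CXCL1, KYNU and HLA-DPB1, and the 12 lowest CAPG, RLBP1, BMP7, APOE, CPVL, FCER1G, AKR1A1, HMGCS1, SCML4, PAGE5, GALNT3 and GAPDHS. The remaining 1.5-fold higher genes included the potassium channel KCNN4, the protein C receptor PROCR and the integrin chain ITGB8, and the remaining lower ones were PSCA and transcripts with clone names. These were named after their values were seen. At matched depth PROCR (log2 ratio 0.55) and PSCA (-0.54) were under 1.5-fold.

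**Figure D3:**
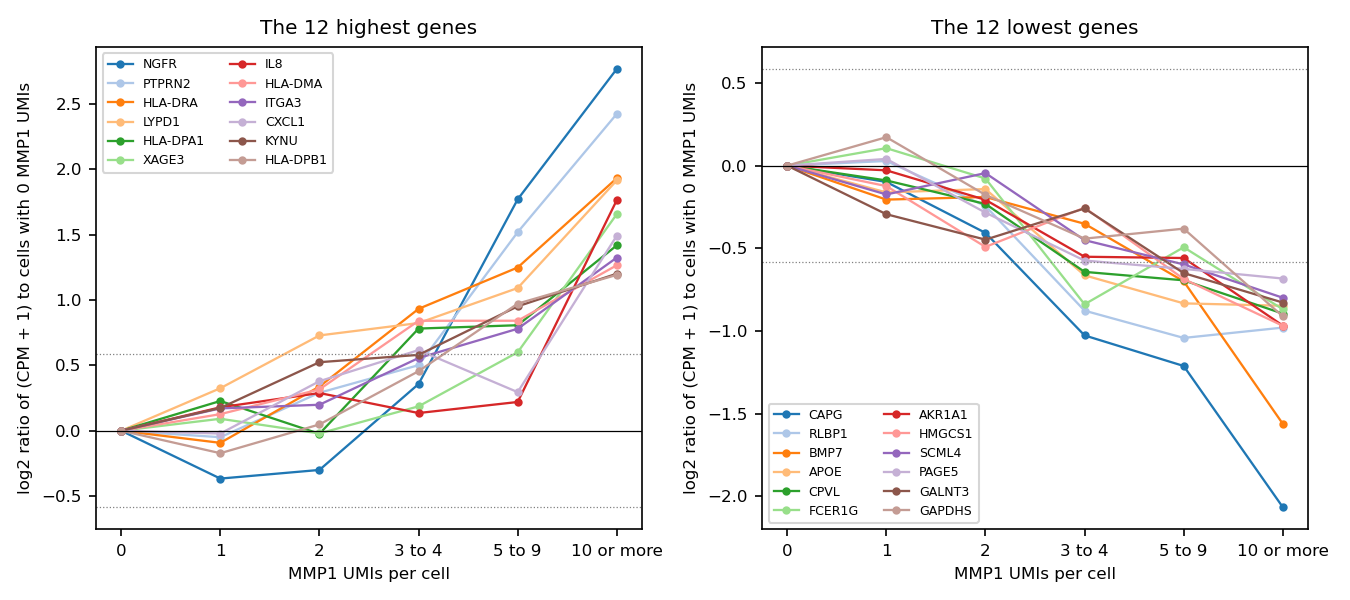
Log2 ratio of (CPM + 1) in each MMP1 class to the cells with 0 MMP1 UMIs for the 12 highest (left) and 12 lowest (right) genes. Dotted lines mark 1.5-fold; most curves stay near 0 in the class with 1 MMP1 UMI, and all 24 genes lie beyond 1.5-fold in the class with 10 or more.

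NGFR, which binds nerve growth factor and the other neurotrophins, had the highest ratio. It was detected in 135 of the 624 MMP1 cells (21.6%) and in 24 of the 572 others (4.196%), and at 20000 UMIs per cell in 14.7% and 3.32%. Its level was 17.3 CPM (15.7 to 19.1) against 3.26 CPM (2.52 to 4.14), a ratio of 5.32 (4.10 to 7.01), and per cell it ran from 0, the median of both groups, to 23 UMIs in the MMP1 cells and 13 in the others. The NGFR reads were concentrated in few cells: 10 cells held 34.7% of the 429 UMIs of the MMP1 cells and 10 cells held 78.8% of the 66 UMIs of the others. With those cells left out on both sides the log2 ratio was 2.86, against 2.11 with them and 1.76 at matched depth. Leaving them out removed the larger share of UMIs from the cells with 0, which by itself raises the ratio. Most MMP1 cells thus had no NGFR count, and the comparison was repeated with the 489 MMP1 cells and the 548 others that had 0 NGFR UMIs. There 17 genes were 1.5-fold higher and 10 lower, of which 16 and 10 belonged to the original 28 and 17.

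PTPRN2, a receptor-type phosphatase-like protein of secretory granules, stood at 11.2 CPM against 2.42 CPM, a ratio of 4.61 (3.39 to 6.39). LYPD1, a GPI-anchored protein of the Ly6 family, stood at 25.3 CPM against 8.59 CPM, a ratio of 2.94 (2.48 to 3.50). In the MMP1 cells thinned to 20000 UMIs, NGFR was detected in 92, PTPRN2 in 85 and both in 22, which is 23.9% of the NGFR cells and 25.9% of the PTPRN2 cells. Among MMP1 cells without NGFR 11.8% had PTPRN2. The detected sets thus overlapped in part, at a depth where a count of 0 is common.

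The MHC class II genes, which present peptides to CD4+ T cells and are induced in many melanomas, formed the list with the largest median. All 5 measured members were higher, where 53.6% of all measured genes were higher by any amount. Each was past 1.5-fold, as were 0.395% of all measured genes upwards, and the median log2 ratio was 1.04 (1.12 at matched depth). HLA-DRA, the invariant alpha chain of HLA-DR, had 2492 UMIs in the MMP1 cells and 698 in the others, 100.7 CPM (96.8 to 105) against 34.4 CPM (31.9 to 37.1). Per cell at 20000 UMIs its median was 1 in the MMP1 cells and 0 in the others, with 95th percentiles of 8.85 and 4 UMIs, so the groups overlapped widely. HLA-DRA was detected at that depth in 58.3% of MMP1 cells and 28.0% of the others. The set holds no cell type known to lack these genes, so a free-RNA background for such shares could not be read within it. HLA-DPA1 stood at 76.2 against 35.1 CPM, HLA-DPB1 at 22.6 against 11.2 CPM, the peptide-loading factor HLA-DMA at 24.98 against 11.6 CPM, and the invariant chain CD74 at 166 against 92.5 CPM. In the thinned MMP1 cells 92.3% of those with HLA-DRA also had CD74, against 57.3% of those without HLA-DRA. In MHC class I 0 of 9 measured genes passed 1.5-fold in either direction, and in the interferon-stimulated list 0 of 6. These counts are near the share of all measured genes, of which 0.395% passed upwards and 0.24% downwards. The median log2 ratios of the 2 lists were -0.01 and 0.02, close to the 0.01 of all measured genes.

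The promoters of LYPD1 and HLA-DMA are shown as 1 example each, among the higher genes, of a window with an exact match to a known binding motif: that of AP-1, the factor family best known at the MMP1 promoter, and the Y box of MHC class II promoters. Both are the 250 bases upstream of the start in RefSeq (GRCh38.p14, minus strand), written 5′ to 3′ with the motif in capitals.
LYPD1, chr2:132671527-132671776, upstream of the start in 1 of 2 entries: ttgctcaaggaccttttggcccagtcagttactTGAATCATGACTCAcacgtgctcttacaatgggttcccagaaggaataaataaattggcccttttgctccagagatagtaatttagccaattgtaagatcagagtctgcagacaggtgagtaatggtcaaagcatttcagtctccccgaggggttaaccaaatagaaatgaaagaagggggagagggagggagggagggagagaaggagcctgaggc
HLA-DMA, chr6:32953098-32953347: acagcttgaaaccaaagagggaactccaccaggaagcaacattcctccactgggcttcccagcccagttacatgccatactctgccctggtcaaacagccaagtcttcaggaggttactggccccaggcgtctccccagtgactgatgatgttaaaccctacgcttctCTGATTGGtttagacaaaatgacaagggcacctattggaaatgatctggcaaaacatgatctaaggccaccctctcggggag
The capitals in the LYPD1 window are 2 matches to TGANTCA (AP-1), and those in the HLA-DMA window are the match to CTGATTGG (the Y box, or reversed CCAAT box). On either strand, TGANTCA occurred in 6.57% of the 35116 RefSeq windows of this length and CTGATTGG in 3.81%. Of the 12 highest genes 7 had a window and 2 of these, LYPD1 and HLA-DPB1, held TGANTCA in 1 of their windows; of the 12 lowest 11 had a window and 1, CAPG, held it. CTGATTGG was found for 1 of the 7, HLA-DMA, and for 0 of the 11. HLA-DPA1, HLA-DPB1 and CD74, which also had windows, held no match to it, so HLA-DMA does not stand for the MHC class II genes searched. The E box CACGTG, which the pigment-lineage factor MITF can bind, was also searched and occurred in 6.34% of all windows. It was found for LYPD1, where it adjoins the second AP-1 match without overlap, and XAGE3 on the higher side and for AKR1A1 and PAGE5 on the lower side. The genes without an entry were MMP1, NGFR, PTPRN2, HLA-DRA, IL8, ITGA3 and BMP7. A match describes letters only.

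IL8 and CXCL1, chemokines of neutrophils and targets of NF-kB, were both highest in the cells with the most MMP1. IL8 stood at 22.4 CPM (20.6 to 24.3) in the MMP1 cells and 10.1 CPM (8.78 to 11.6) in the others. By MMP1 class it was 10.1 CPM at 0, 11.6 at 1, 12.6 at 2, 11.2 at 3 to 4, 11.9 at 5 to 9 and 36.8 CPM at 10 or more UMIs. The counting intervals of the classes from 1 to 9 UMIs overlapped that of the cells with 0, and that of the last class (33.2 to 40.6) did not. The highest cell held 57 IL8 UMIs and 10 cells held 38.3% of the group's 554, and without the 10 highest cells of each group the log2 ratio was 0.80 in place of 1.07. CXCL1 stood at 14.2 against 6.66 CPM, and by MMP1 class it had 6.66 CPM at 0, 6.55 at 1, 8.96 at 2, 10.7 at 3 to 4, 8.40 at 5 to 9 and 20.5 CPM at 10 or more UMIs. Its interval at 3 to 4 UMIs (8.38 to 13.6) already lay above that at 0 (5.59 to 7.88), while that at 5 to 9 (6.47 to 10.7) overlapped it. In thinned MMP1 cells 148 had IL8, 116 had CXCL1 and 46 had both. Of the 7 measured genes of the cytokine and NF-kB list these 2 passed 1.5-fold, where 0.395% of all measured genes did so upwards. The list was mixed, with 5 genes above 0 and 2 below, where 53.6% of all measured genes lay above. Its median log2 ratio was 0.13.

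Several secreted or cell-surface proteins of matrix turnover were higher. SERPINE2, also called protease nexin, which inhibits thrombin and plasminogen activators, was the most abundant, at 933 CPM against 559 CPM, a ratio interval of 1.63 to 1.71. It was detected in every cell of both groups, and per cell at 20000 UMIs its quartiles were 10, 15 and 24 UMIs in the MMP1 cells and 6, 9 and 15 in the others. By MMP1 class it went from 559 CPM at 0 through 591 at 1 and 732 at 3 to 4 to 1100.5 CPM at 10 or more. PLAUR, the urokinase receptor, stood at 34.8 against 22.2 CPM, with a log2 ratio of 0.63 that was 0.54, under 1.5-fold, at matched depth. Of the 5 measured genes of plasminogen activation and serpins these 2 passed 1.5-fold, where 0.395% of all measured genes did so upwards. At matched depth 1 of the 5 passed, where 0.409% of all measured genes did. All 5 lay above 0, as did 53.6% of all measured genes, with a median of 0.36.

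The MMP inhibitors and partners gave 0 of 5 past 1.5-fold, where 0.395% of all measured genes were past it upwards and 0.24% downwards. TIMP3, a matrix-bound inhibitor, stood at 609 against 446 CPM, TIMP1, which inhibits MMP1, at 698 against 575 CPM, and CD44, the hyaluronan receptor, at 461 against 326 CPM. TIMP2 was on the other side, at 189 against 215 CPM. The integrin alpha 3 chain ITGA3, a laminin receptor subunit, stood at 15.5 against 7.30 CPM and was the only one of the 16 measured members of the adhesion receptor list past 1.5-fold; ITGB8, above, is not on that list. Among matrix genes the proteoglycan VCAN was higher (12.7 against 6.96 CPM), and COL9A3, a collagen IX chain, had 48.1 against 72.2 CPM, a log2 ratio of -0.58, just under 1.5-fold, and -0.67 at matched depth. KYNU, kynureninase of tryptophan breakdown, had 12.1 against 5.63 CPM, and XAGE3, a cancer-testis antigen gene, 15.4 against 6.76 CPM. The metallothionein MT1E stood at 49.6 against 28.6 CPM.

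The genes around MMP1 differed little. MMP8, the neutrophil collagenase and the only other measured gene of the cluster, stood at 94.2 CPM (90.4 to 98.1) against 76.9 CPM (73.2 to 80.8), a log2 ratio of 0.29. The measured flanking genes YAP1, BIRC2, TMEM123 and DCUN1D5 had log2 ratios of 0.16, 0.19, 0.11 and 0.12. BIRC3, DYNC2H1 and PDGFD were under the minimum level in both groups, at 0.9296, 4.57 and 7.76 CPM in the MMP1 cells. Other metalloproteinases, on other chromosomes, had log2 ratios of -0.05 (MMP14; 0.01 at matched depth), 0.03 (MMP16) and 0.14 (MMP17).

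Of the 18 listed AP-1, ETS and RUNX factors 14 were measured and 0 passed 1.5-fold. Of all measured genes 0.395% passed it upwards and 0.24% downwards, so 0 among 14 is near that share. The highest was FOSL1, the AP-1 subunit FRA1, with 44.3 CPM against 30.1 CPM, a log2 ratio of 0.54 that was 0.39 at matched depth. FOS had 97.4 against 82.5 CPM, FOSB 10.6 against 8.73, JUN 16.7 against 16.2, JUNB 47.8 against 44.8 and JUND 10.4 against 10.7 CPM. BATF3 had 13.5 against 11.6, MAFF 16.7 against 17.1, ETS1 13.7 against 13.5, ETV1 28.0 against 23.1, ETV4 113 against 118 and ETV5 177 against 176 CPM. RUNX1 had 11.2 against 11.8 CPM, and RUNX3 was lowest, at 23.2 against 28.6 CPM. FOSL2, ATF3, ETS2 and RUNX2 were under the minimum level. The MAPK output list (15 measured) and the immediate-early list (12 measured) also had 0 genes past 1.5-fold, with medians of -0.02 (0.03 at matched depth) and 0.07.

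The lowest gene was CAPG, a capping protein of actin filaments. It had 66.1 CPM (63.0 to 69.4) in the MMP1 cells and 183 CPM (177 to 189) in the others, 2.77 times as much (2.61 to 2.94). By MMP1 class its level was lower at each step, from 183 CPM at 0 and 171 at 1 to 138 at 2, 89.4 at 3 to 4, 78.5 at 5 to 9 and 43.0 CPM at 10 or more. Per cell at 20000 UMIs the median was 1 in the MMP1 cells and 2 in the others, with 95th percentiles of 6 and 11. At that depth 48.1% of the MMP1 cells with HLA-DRA had a CAPG UMI, against 59.6% of those without HLA-DRA.

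Pigment-lineage genes were mostly a little lower. Of 19 measured melanocytic genes 15 lay below 0, where 46.4% of all measured genes did, with a median log2 ratio of -0.11, and APOE alone passed 1.5-fold. APOE, a lipid-carrying apolipoprotein secreted by melanoma cells, stood at 292 CPM (285 to 298) against 506 CPM (496 to 516). PMEL, the fibril protein of melanosomes, had 1701 against 2545 CPM, a log2 ratio of -0.58, and per cell at 20000 UMIs a median of 30 against 45 UMIs. DCT, an enzyme of melanin synthesis, had 188 against 275 CPM, and the melanosome protein MLANA 1922 against 2375 CPM. MITF, the master factor of the lineage, stood at 245 against 260 CPM and SOX10, the neural crest factor, at 70.8 against 71.9 CPM, and S100B, a marker of melanoma, was higher at 3198 against 2632 CPM. Both groups therefore carried the melanocytic markers at levels far above the minimum. Of the 20 listed genes of the undifferentiated or invasive state only 6 were measured. All 6 lay above 0, where 53.6% of all measured genes were, with a median of 0.36, but NGFR alone passed 1.5-fold.

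Cholesterol synthesis genes lay below 0 in 19 of 19, where 46.4% of all measured genes did, with a median log2 ratio of -0.19 at both depths, and HMGCS1, an early enzyme of the pathway, passed 1.5-fold with 13.7 against 22.4 CPM. SQLE, a later enzyme of the pathway, had 74.7 against 94.5 CPM. The 12 measured mitochondrially encoded genes also lay below 0, with a median of -0.24, and their list summed to 48352 CPM in the MMP1 cells and 58222 CPM in the others, while the nuclear-encoded respiratory chain genes had a median of -0.05 with 0 of 20 past 1.5-fold. AKR1A1, an aldehyde reductase, had 179 against 295 CPM, a per-cell median of 2 against 4 UMIs at 20000. Among the other leading lower genes RLBP1, a retinaldehyde-binding protein, had 5.98 against 12.7 CPM, the growth factor BMP7 5.42 against 10.9, the carboxypeptidase-like CPVL 22.1 against 38.2, the Fc receptor gamma chain FCER1G 6.51 against 11.5 and the cancer-testis antigen PAGE5 93.2 against 145 CPM. SCML4 had 18.3 against 29.1 CPM, the glycosyltransferase GALNT3 8.97 against 14.2 (log2 ratio -0.60, and -0.53, under 1.5-fold, at matched depth) and GAPDHS, the sperm form of GAPDH, 24.05 against 37.1 CPM. Past 1.5-fold lay 0.395% of all measured genes upwards and 0.24% downwards. The lists for hypoxia, glycolysis, amino acid and ER stress, p53 and heat shock gave 0 genes past 1.5-fold and medians between -0.04 and 0.08. Likewise 0 genes passed in the S100 and annexin list (median 0.08), the TGF-beta and BMP list (0.17) and the replication-dependent histones (-0.04, and 0.05 at matched depth).

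**Figure D4:**
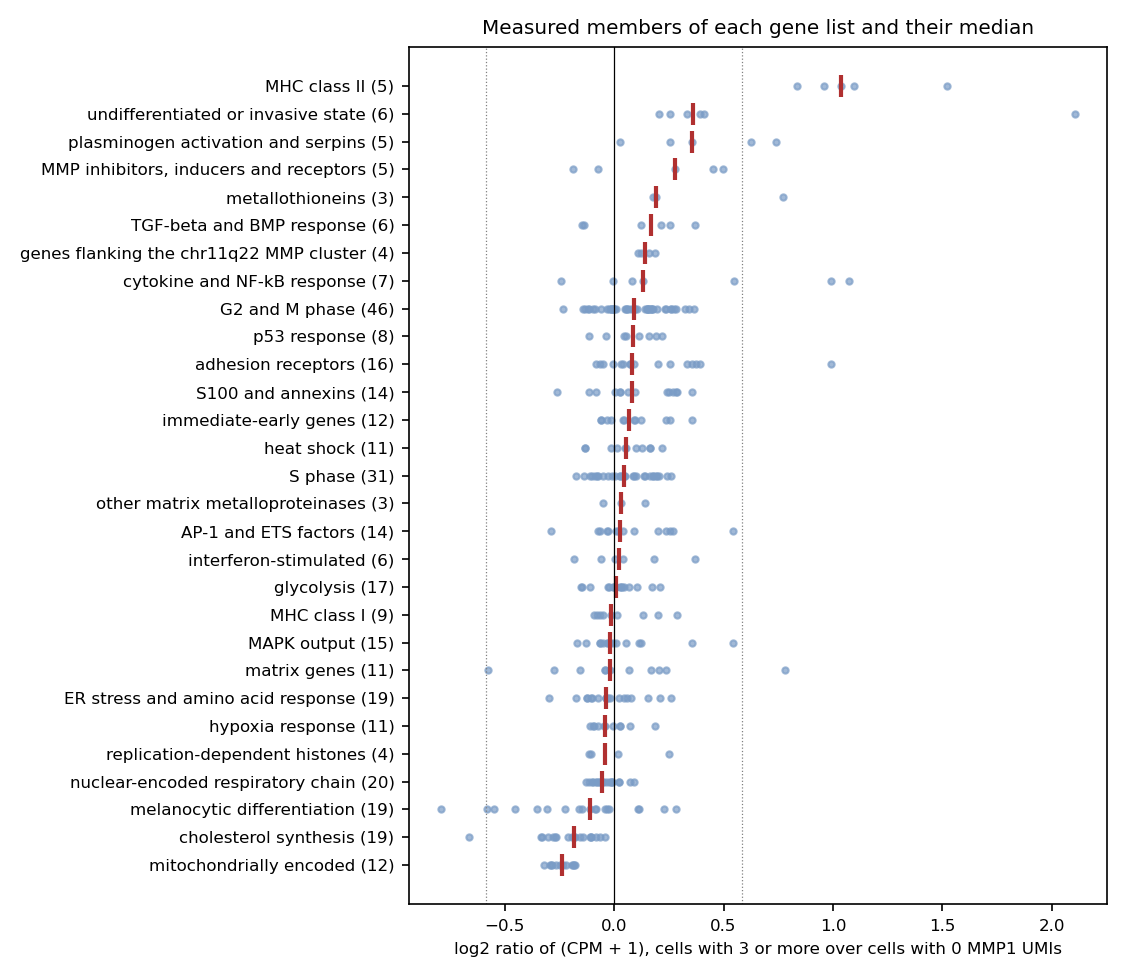
Log2 ratio of (CPM + 1) between cells with 3 or more and cells with 0 MMP1 UMIs for each measured member (points) of every list with at least 3 measured members, the number measured in brackets, and the list median (red mark). Dotted lines mark 1.5-fold; the MHC class II median is farthest right at 1.04 and that of the mitochondrially encoded genes farthest left at -0.24.

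Near AKR1A1 and APOE, single neighbours on the genome stood out as lower. Neighbours, measured genes starting within 1 Mb, were looked up in GRCh38 after the values had been seen. By any amount, 10 of 15 neighbours of AKR1A1, 6 of 16 of APOE and 6 of 17 of CAPG were lower, where 46.4% of all measured genes were. For HMGCS1 it was 7 of 7, with a median log2 ratio of -0.12. PRDX1, a peroxiredoxin near AKR1A1 on chromosome 1, had 1040 CPM against 1453 CPM (log2 ratio -0.48), and PIK3R3, also within 1 Mb, 12.7 against 18.8 CPM (-0.53), while NASP, on the other side of AKR1A1, had 125 against 127 CPM. APOC1, beside APOE on chromosome 19, had 53.4 against 80.6 CPM, a log2 ratio of -0.58 that was -0.62, past 1.5-fold, at matched depth. CAPG had 17 measured neighbours, with log2 ratios from -0.15 to 0.21. NGFR and ITGA3 lie within 1 Mb of each other on chromosome 17, and of the 20 measured neighbours of NGFR the next highest after ITGA3 was HOXB2, with a log2 ratio of 0.19. IL8 and CXCL1 are neighbours on chromosome 4, and the MHC class II genes lie together on chromosome 6.

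Markers of other cell types were under the minimum level of 10 CPM in both groups, with the exceptions of FAP, LUM, CD68, KRT8 and KRT18. The summed level of 8 fibroblast markers in the table was 41.7 CPM in the MMP1 cells and 34.4 CPM in the others, most of it FAP (18.9 and 11.99 CPM), LUM (11.1 and 13.6) and ACTA2 (9.42 and 7.70); COL1A1 had 0 UMIs, and PDGFRA and PDGFRB 5 and 4 UMIs in the MMP1 cells. FAP, a membrane protease of activated fibroblasts, was past 1.5-fold higher, with a log2 ratio of 0.62 (0.65 at matched depth), 1 of the 2 fibroblast markers measured. Its part in the other differences was not tested. Endothelial markers summed to 0.970 and 1.09 CPM. Immune markers summed to 26.7 and 33.8 CPM, nearly all from CD68, with 2 PTPRC UMIs and 0 CD14 UMIs in the MMP1 cells. Of the epithelial markers KRT8 (25.2 and 25.4 CPM) and KRT18 (110 and 99.8 CPM) were present, EPCAM was at 0.525 and 0.444 CPM and KRT14 had 0 UMIs. The genes that are scarce in barcode set 1 but not in the other sets remained scarce in the MMP1 cells, with BST2 at 0.566 CPM and 0.444 CPM in the others.

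Across the MMP1 classes the leading genes lay farther from the cells with 0 the more MMP1 UMIs the class held, with the exceptions in the plot by class. In the 377 cells with 1 MMP1 UMI, 7 of the 12 highest genes were above the cells with 0 and 8 of the 12 lowest were below, where 48.6% of all measured genes were above and 51.4% below. In the 180 cells with 2 UMIs the counts were 9 and 12, where 50.3% of genes were above and 49.7% below. The cells with 0 had helped to choose the leading genes and are the reference here, so these counts are not independent of that choice. Some leading genes, such as NGFR, were also under the minimum level that the shares of all genes required. As the pooled cells with 3 or more UMIs had chosen these genes, their direction in the classes that make up that group is no support for it. All 24 had it in the classes with 3 to 4 UMIs (51.7% of all genes above and 48.3% below) and with 5 to 9 and 10 or more (54.1% above and 45.9% below in each). In the last of these all 24 were past 1.5-fold, as were 0.855% of all genes upwards and 0.729% downwards. HLA-DRA, for example, went from 34.4 CPM at 0 and 32.2 at 1 to 43.8, 66.6, 83.2 and 134 CPM in the classes 2, 3 to 4, 5 to 9 and 10 or more, and APOE from 506 and 452 CPM to 458, 319, 284 and 281 CPM. NGFR had 3.26, 2.30, 2.46, 4.45, 13.5 and 28.0 CPM, so that it stood apart only from 5 MMP1 UMIs upwards. Within cells of 20000 to 30000 UMIs, of 30000 to 40000 and of 40000 or more, 12 of 12 highest genes were higher and 12 of 12 lowest lower, as these cells had chosen them (56.2%, 52.6% and 53.1% of all measured genes were higher there and 43.8%, 47.4% and 46.9% lower). CAPG had 59.2 against 173 CPM in the shallowest of these strata and 72.6 against 212 CPM in the deepest, and HLA-DRA 125 against 39.6 CPM and 88.5 against 24.1 CPM. The same cells were also taken apart by phase and by mitochondrial share, which is again no independent check: the 24 directions were found in G1, S and G2/M cells taken apart (53.4%, 54.4% and 50.1% of all genes higher, 46.6%, 45.6% and 49.9% lower) and in each of 3 equal classes of mitochondrial share (47.1%, 45.2% and 51% higher, 52.9%, 54.8% and 49% lower).

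MMP1 cells were rare outside barcode set 1. Among cells with at least 20000 UMIs, 0 of 1645 in set 2, 6 of 1818 in set 3 and 7 of 1827 in set 4 had 3 or more MMP1 UMIs, with at most 13 in a cell. The count of 0 allows a share of up to 0.182% in set 2 if 3 cells are taken as its limit and up to 0.224% by Clopper-Pearson, and the other shares were 0.330% (0.121% to 0.717%) and 0.383% (0.154% to 0.788%). None of the 13 cells shared a barcode with set 1. They also carried BST2, which is scarce in set 1. It stood at 246 CPM in the 6 cells and 215 CPM in the 7 cells, against 172 and 150 CPM in the cells of their own sets with 0 MMP1 UMIs and 0.501 CPM in set 1. PAGE5, which is not scarce in set 1 at 124 CPM, stood at 666 and 741 CPM in the 6 and the 7 cells. The cells of their own sets with 0 MMP1 UMIs had 749 and 732 CPM, log2 ratios of -0.17 and 0.02.

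These cells, which did not enter the choice of the leading genes, were compared with the cells of their own set that had 0 MMP1 UMIs, a comparison chosen after the values were seen. Of the 12 highest genes 7 were higher in set 3 and 9 in set 4, where 52.9% and 58.7% of all measured genes were higher, and of the 12 lowest 11 and 9 were lower, where 47.1% and 41.3% were. The counts and shares are not fully alike. The shares cover genes with at least 10 CPM in 1 or both groups, which several leading genes did not reach in these sets. In set 3 XAGE3 and HLA-DPB1 counted as higher on 1 UMI each, and in set 4 XAGE3 did so on 1 UMI. LYPD1 had 14 UMIs in the 6 cells of set 3 and 9 in the 7 cells of set 4, 52.97 CPM (28.96 to 88.9) against 6.97 CPM and 30.3 CPM (13.9 to 57.5) against 8.38 CPM. In set 3 a single cell held 11 of the 14 LYPD1 UMIs, so that value rests mostly on 1 cell, while in set 4 the highest cell held 2. PTPRN2 had 3 and 2 UMIs, or 11.3 CPM (2.34 to 33.2) against 0.541 CPM and 6.73 CPM (0.815 to 24.3) against 0.585 CPM. Its 3 UMIs in set 3 lay in 2 cells and its 2 UMIs in set 4 in 1 cell. HLA-DRA had 3 UMIs, all in 1 cell, and 5 UMIs in 2 cells. SERPINE2 was present in all 13 cells, at 681 CPM (585 to 788) against 461 CPM in set 3 and 1205 CPM (1084 to 1337) against 447 CPM in set 4.

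On the lower side, AKR1A1 had 182 CPM (134 to 241) against 310 CPM in set 3 and 192 CPM (145 to 248.6) against 322 CPM in set 4, and APOE 692 CPM (596 to 800) against 1448 CPM and 542 CPM (462 to 633) against 1214 CPM. PMEL, named here for contrast, had 2849 against 4922 CPM and 2296 against 4514 CPM. Other genes went against set 1 or could not be read. CAPG, at 7.32 CPM and 4.11 CPM in the cells with 0, had 7 UMIs in 1 cell of set 3 and 2 UMIs in set 4. CXCL1, KYNU and HLA-DMA had 0 UMIs in all 13 cells, and NGFR 0 in set 3 and 5 in 2 cells of set 4. IL8 had 293 UMIs in the 6 cells of set 3, with a median of 2 and a highest of 155 per cell, so that its 1108 CPM there rests on few cells. With all cells of at least 1 MMP1 UMI, 40 in set 3 and 37 in set 4, 7 and 10 of the 12 highest genes were higher (53.2% and 54.8% of all genes) and 9 and 12 of the 12 lowest lower (46.8% and 45.2%). There too several leading genes were under the minimum level that the shares of all genes required.

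**Figure D5:**
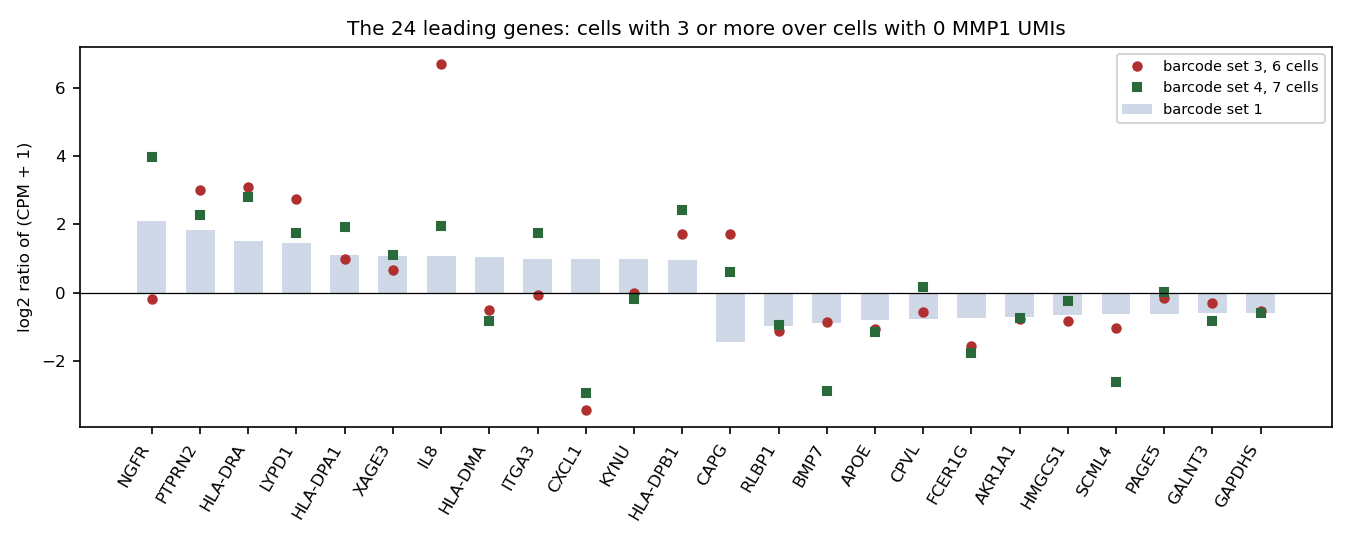
Log2 ratio of (CPM + 1) between cells with 3 or more and cells with 0 MMP1 UMIs for the 12 highest and 12 lowest genes of barcode set 1 (bars), with the 6 cells of set 3 (circles) and the 7 cells of set 4 (squares) against their own sets. Points rest on few UMIs; PTPRN2, LYPD1 and IL8 lie above 0 and APOE and AKR1A1 below 0 in all 3 sets, while CAPG and CXCL1 lie on the other side of 0 in sets 3 and 4.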

How the data were processed

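The authors deposited UMI counts per gene and cell (19238 genes, 8173 cells). A log-scale version of it was left unused. Chromium Single-cell 3' v2 libraries were made, per the labels' protocols. The submitters' processing notes name Cell Ranger 3.0.0, Seurat 3.0 and the genome builds hg19 and mm10; their roles are not given in the sources used here. The 2 groups summed to 24742051 and 20266538 UMIs. Counts were summed per group and compared as log2 of the ratio of (CPM + 1), for genes with at least 10 CPM in 1 or both groups. Intervals are exact Poisson (CPM), conditional binomial (ratios) and Clopper-Pearson (shares).

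The members and the 35 gene lists were chosen with earlier results of these data known. Genes named are MMP1 and the 12 highest and 12 lowest (same sign at matched depth, without mitochondrial, ribosomal protein, clone-named and numbered second entries). Up to 3 measured members of each list, the MMP cluster with its flanking genes, and the AP-1, ETS and RUNX factors are named too. So are MITF, SOX10, PMEL, MLANA, MKI67, TOP2A and PCNA. Other genes were named after their values were seen. Phases came from scanpy 1.11.5. Coordinates come from GRCh38 annotations, not from the files' build. The calculation was tested on simulated data. Doublets were not called and free RNA was not removed. edgeR 4.0.16 was used only for TMM scaling. Lines were not compared.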

Additional observations from a re-analysis of the deposited data

Results flagged for a closer look

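Cells with 3 or more MMP1 UMIs outside barcode set 1 were flagged as a signal in data that the main comparison does not use. There were 6 such cells in barcode set 3 and 7 in barcode set 4 with at least 20000 UMIs, and 0 in barcode set 2. They held 48 of the 89 MMP1 UMIs of set 3 and 54 of the 89 of set 4. Where these cells came from was not tested.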

How the results depend on the processing

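With 45 genes past 1.5-fold in all (28 higher, 17 lower), the counts moved with the settings, and why they moved was not tested. They were 48 higher and 42 lower with cells thinned to 20000 UMIs and regrouped, 61 and 52 with 10 or more MMP1 UMIs against 0, 57 and 47 in G1 cells only, 13 and 6 with a pseudocount of 10 CPM, 5 and 5 with a minimum of 50 CPM, and 109 and 93 with no minimum CPM. With 5 or more MMP1 UMIs against 0 there were 26 lower, and with totals without mitochondrial and ribosomal protein genes 33 lower. In cells with 0 NGFR UMIs, a choice made after seeing the data, there were 17 and 10. The other counts stayed within 1.5 times, also in cells with at most 60000 UMIs (27 and 20), likewise chosen after seeing the data. The original 28 and 17 were all among those past 1.5-fold at 5 or more and at 10 or more MMP1 UMIs. G1 cells kept 23 and 12 of them. No named gene past 1.5-fold changed sign under any alternative run. The variance-to-mean ratio of MMP1 was 11.3 after thinning. GAPDHS and GALNT3 each dropped under 1.5-fold in 4 of 15 alternatives, and NGFR, PTPRN2, HLA-DRA, LYPD1, CAPG and APOE in 0 of those run. No paired analysis was possible because no group has replicates: the comparison lies within 1 library. Leaving out replicates was likewise not possible, and the comparison between lines was not run. Genes near 10 CPM rest on few UMIs per group, which limits how firmly their ratios can be read.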
